A study of Mus musculus with 768 samples.

Results

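Myo6, Cib2, Rasd2 and Espn are 4 genes known from sensory hair cells that were read in many cochlear organoid cells in which transcripts of the hair cell master regulators were not read. They are 4 of the 52636 genes in the count tables, and they were chosen with earlier results of these data known. They were selected on how often they were read, and on a contrast between cells with and without hair cell transcripts, so both are given below as descriptions with no test. Myo6 was read in 45.4% of the cells without hair cell transcripts, Cib2 in 54.9%, Espn in 44.9% and Rasd2 in 18.9%. Rasd2 was therefore read in fewer of these cells than the other members. In 14 cells with hair cell transcripts the mean level of each of them was higher.

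Hair cells turn sound into electrical signals with a bundle of stereocilia, which are stiff protrusions filled with parallel actin filaments. Tip links between stereocilia pull on a transduction channel built on TMC proteins when the bundle is deflected. The transcription factor Atoh1 starts the hair cell program, and Pou4f3 and Gfi1 act after it. The greater epithelial ridge, or GER, is the epithelium on the inner side of the hair cells in the young cochlea. Its cells are not hair cells, but they can be grown as organoids and some can be steered toward that fate. MYO6 is a myosin motor that walks toward the minus end of actin filaments and anchors the membrane at the base of stereocilia, and its loss deafens mice. CIB2 is a calcium-binding protein that assembles with the TMC channel. ESPN, or espin, bundles actin filaments and sets the length of stereocilia. RASD2, also called Rhes, is a small GTPase related to Ras and best known from neurons of the striatum.

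The cells came from mice on postnatal day 2 that carry Sox2-GFP, Fgfr3-CreERT2 and Ai14-tdTomato. The labels say that GER cells were enriched by flow cytometry, and do not give the gate, the sex or the number of animals per culture. Every culture received the same medium, with EGF, FGF2, IGF1, CHIR99021 (an inhibitor of GSK3), valproic acid (an inhibitor of histone deacetylases), 2-phospho-L-ascorbic acid and a TGFβ receptor inhibitor, so there is no untreated group. Organoids were dissociated on culture Day 1 (3 cultures of 47 to 90 cells), Day 3 (3 cultures of 82 to 88) and Day 7 (5 cultures of 40 to 80). Hand-picked single cells were turned into SmartSeq2 libraries, which cover whole transcripts and have no molecular identifiers. The culture, named by the labels as a replicate of a day, is the unit of every test. Nothing states that cultures came from separate animals, so p-values measure the spread between these cultures, which may be technical.

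Filters left out 57 cells. For values per cell, counts were thinned at random to 200000 reads, which all but 16 of the retained cells reached. Levels are in CPM, reads of a gene scaled to a common total per library, so that 1 read in a thinned cell equals 5 CPM. A cell was taken to have hair cell transcripts when at least 2 of Atoh1, Pou4f3, Gfi1, Myo7a (a myosin of stereocilia) and Pvalb (a calcium buffer) had a read. This applied to 14 cells (3 from Day 1, 10 from Day 3 and 1 from Day 7). The others, 37 to 85 per culture, are called cells without hair cell transcripts, though 11 of them had a read of 1 of the 5 genes. The median retained cell of a culture had between 5681 and 7155.5 genes with a read. The epithelial genes Epcam or Cdh1 were read in 99.6% of the thinned cells. At least 2 genes of the GER list were read in 98.99% of them, of the supporting cell list in 99.6%, of the mesenchyme list in 1.44%, of the neuron list in 5.90%, of the immune list in 0.576% and of the blood list in 0.144%. All 3 melanocyte genes were at 0. Genes of glia were not near 0: Sox10, which the otic epithelium also expresses, was read in 85.8% of the cells and the myelin gene Mbp in 35.4%. Their part in the results was not tested.

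All 4 members are protein-coding. In GENCODE M21 (GRCm38), in which the 4 members have the identifier versions of the deposited tables, Myo6 (ENSMUSG00000033577.18) lies on the plus strand at chr9:80165031-80311729, and Cib2 (ENSMUSG00000037493.6) on the minus strand at chr9:54544794-54560218. Rasd2 (ENSMUSG00000034472.13) lies on the plus strand at chr8:75213944-75224113 and Espn (ENSMUSG00000028943.18) on the minus strand at chr4:152120331-152152371. Sh2d7, on the opposite strand, shares 15.8% of the exon length of Cib2. Whether counting used strand is not given in the sources used here, and Sh2d7 itself had 3 reads over all these cells. Estimated counts of Myo6, Rasd2 and Espn were whole in every cell, and 0.227% of the Cib2 values above 0 were not.

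The 250 bases before the first RefSeq start of each member (GRCm38.p6) are shown as a description, and their part in the reads of the members was not tested. Capitals mark GC boxes (GGGCGG, or CCGCCC on the other strand) and the E-box CAGCTG, which reads the same on both strands.
Myo6, chr9:80164784-80165033, plus strand: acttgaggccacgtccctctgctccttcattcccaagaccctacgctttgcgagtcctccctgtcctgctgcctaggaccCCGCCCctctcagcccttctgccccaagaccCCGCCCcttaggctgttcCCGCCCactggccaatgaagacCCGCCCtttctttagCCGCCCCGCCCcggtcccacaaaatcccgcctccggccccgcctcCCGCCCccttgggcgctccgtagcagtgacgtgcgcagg
Cib2, chr9:54560191-54560440, minus strand: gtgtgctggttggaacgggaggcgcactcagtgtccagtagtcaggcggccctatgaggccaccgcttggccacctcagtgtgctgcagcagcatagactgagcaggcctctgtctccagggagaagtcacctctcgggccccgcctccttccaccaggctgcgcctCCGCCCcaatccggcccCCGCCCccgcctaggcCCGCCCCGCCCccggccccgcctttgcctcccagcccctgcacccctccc
Rasd2, chr8:75213694-75213943, plus strand: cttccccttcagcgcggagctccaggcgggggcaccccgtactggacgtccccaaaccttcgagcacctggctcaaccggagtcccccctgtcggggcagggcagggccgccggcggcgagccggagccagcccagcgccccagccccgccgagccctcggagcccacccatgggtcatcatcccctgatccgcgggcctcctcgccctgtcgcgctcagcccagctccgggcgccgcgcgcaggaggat
Espn, chr4:152152390-152152639, minus strand: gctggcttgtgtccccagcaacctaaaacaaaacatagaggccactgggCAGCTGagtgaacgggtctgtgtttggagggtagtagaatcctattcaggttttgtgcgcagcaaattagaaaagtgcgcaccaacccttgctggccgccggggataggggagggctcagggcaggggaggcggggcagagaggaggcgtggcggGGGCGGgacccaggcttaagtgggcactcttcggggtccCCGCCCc
The windows hold 18 CpG dinucleotides for Myo6, 15 for Cib2, 27 for Rasd2 and 11 for Espn. Counted in the window of each gene with the most CpG, at least 10 occur in 40.2% of the 27025 genes with a window. By the same count they occur in 8 of the 19 hair cell genes with a window that were read in under 1% of cells. They occur in 2 of the 5 other listed hair cell genes that were read in 10% or more. For each member the first window is the one with the most CpG. The GC box occurs 7 times for Myo6, 4 times for Cib2, 2 times for Espn and not for Rasd2, against 32.7% of all 32851 windows with at least 1. CAGCTG occurs in the Espn window alone among these, and in 13% of all windows. The TATA box TATAAA occurs in none of the 4 and in 12.4% of all windows. RefSeq gives Espn a pair of later starts as well, with 1 and 3 CpG in their windows. These are matches of letters and not sites of binding.

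In cells without hair cell transcripts, the motor gene Myo6 had a read in 45.4% (exact 95% Clopper-Pearson interval 41.6% to 49.2%). Cells with a read had a median of 50 CPM, and the highest level was 500 CPM. At least 5 reads, equal to 25 CPM, were present in 34.5% of the cells, and 25 cells had exactly 1 read.

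The transduction gene Cib2 had a read in 54.9% of the cells (interval 51.1% to 58.7%), with a median of 35 CPM among them and at most 67 reads. The bundling gene Espn had a read in 44.9% (41.2% to 48.8%), with a median of 20 CPM, and 61 cells had exactly 1 read. Rasd2 had a read in 18.9% (16.1% to 22.1%), with a median of 35 CPM and a highest value of 280 CPM. Rasd2 was thus read in fewer cells than Espn but at a higher median among the cells with a read. At 5 reads or more the shares were 37.9% for Cib2, 18.4% for Espn and 12.8% for Rasd2. At full depth they were 51.8% for Myo6, 60.8% for Cib2, 21.6% for Rasd2 and 53.3% for Espn. Reads are PCR copies, and these intervals pool the cells of 11 cultures as if each were independent. They cover counting error only and not the spread between cultures. By culture the shares with a read ran from 33.8% to 67.1% for Myo6 and from 29.6% to 78.8% for Cib2. For Rasd2 they ran from 5.88% to 33.3%, and for Espn from 34.2% to 58.97%.

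Other hair cell genes set these shares in context. Of 35 hair cell genes listed beside the members, 5 define the classes of cells, so that their low shares here (at most 0.587%, that of Atoh1) follow from the choice of cells. Of the other 30, 20 were read in under 1% of the same cells, and 10 of these in none. A count of 0 allows a share of up to 0.441% by 3 counts of the total, and the exact two-sided 95% interval ends at 0.540%. Otof, the calcium sensor of hair cell synapses, was read in 0.147% of the cells. A middle group of 5 genes was read in 1% to 10% (Acbd7 9.40%, Calb2 6.31%, Myo15 2.94%, Rbm24 and Fscn2 1.76% each). Another 5 reached 10%, as all members did. These were Anxa4 (76.1%), Ush1c (56.4%), which encodes the scaffold harmonin, Smpx (28.5%), the tip link gene Pcdh15 (24.7%) and the channel partner Tmie (13.2%). Such shares are not unusual over the whole table. Of 24154 genes with a read in any of these cells, 24.4% had a share at or above that of Myo6, 19.4% at or above that of Cib2, 24.6% at or above that of Espn and 40.7% at or above that of Rasd2.

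**Figure D1:**
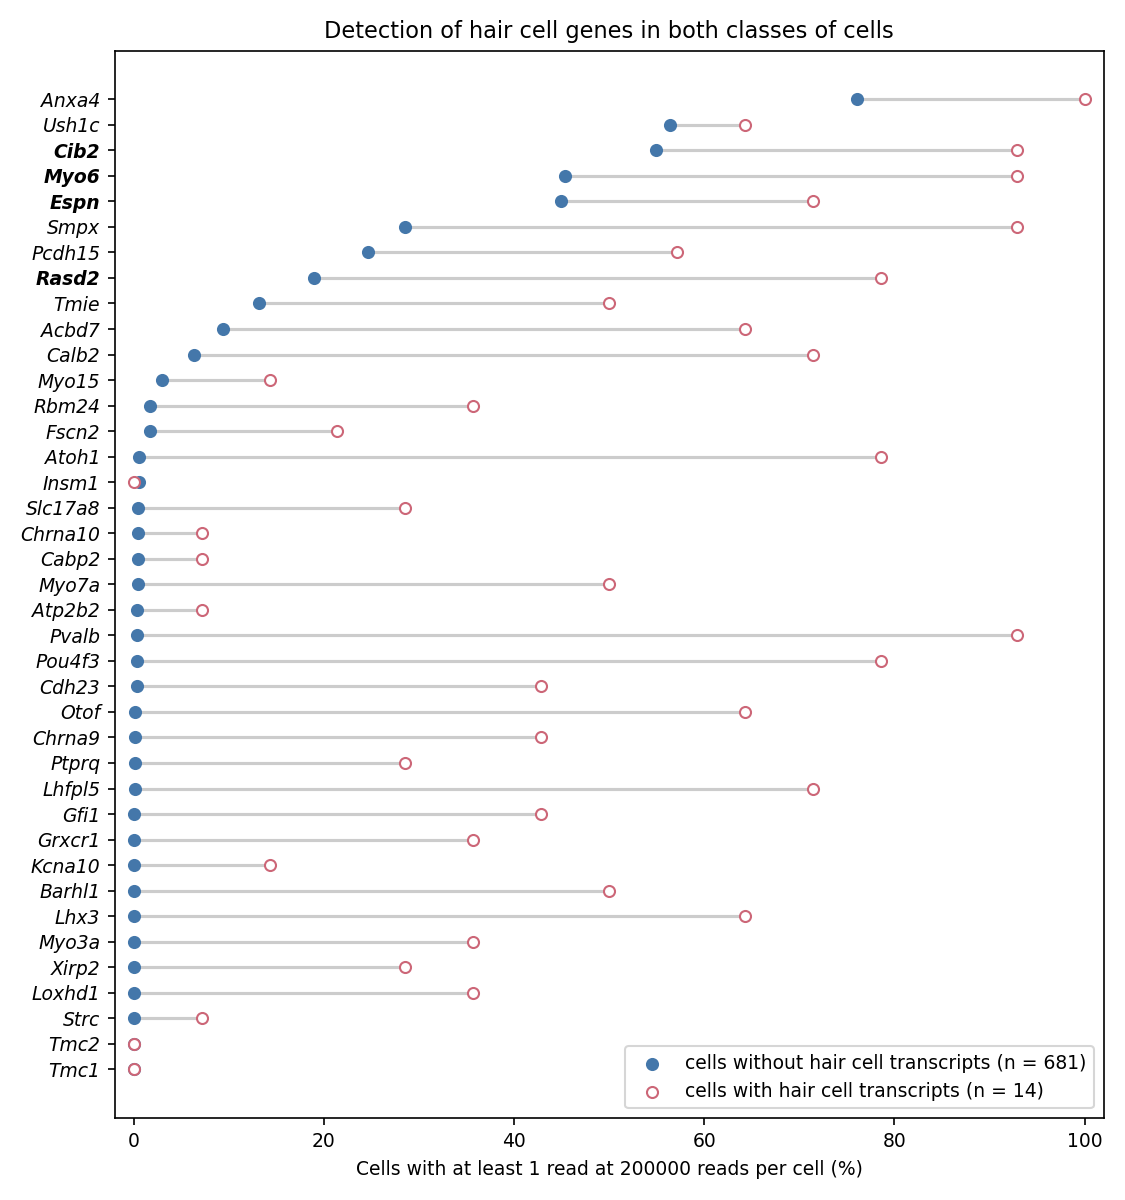
Percent of cells with at least 1 read at 200000 reads per cell (x axis) for the 4 members (bold) and 35 other hair cell genes (rows), in cells without (filled blue) and 14 cells with hair cell transcripts (open red). The members lie with Anxa4, Ush1c, Smpx, Pcdh15 and Tmie above 10% in the blue cells, and 25 genes lie under 1%, 5 of them the genes that define the classes. The 5 are Atoh1, Pou4f3, Gfi1, Myo7a and Pvalb.

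In the 14 cells with hair cell transcripts, Myo6 and Cib2 each had a read in 13 cells, Rasd2 in 11 and Espn in 10. The level of Myo6 ran from 0 to 2120 CPM with a median of 342.5, and its mean was 598.2 CPM against 30.8 in the cells without. Cib2 ran from 0 to 6225 CPM with a median of 65 reads, and its mean was 778 CPM against 25.7. Each of these 2 genes spanned the whole range from no read to the highest cell of the data.

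Rasd2 had a mean of 222.9 CPM against 9.13, and a median of 167.5 CPM. Espn had a mean of 78.6 CPM against 11.9, and a median of 22.5 CPM. A level at or above the median of the 14 was reached by 3 of the cells without for Myo6, 2 for Cib2 and 4 for Rasd2, but by 18.4% of them for Espn. Espn thus overlapped most between the classes.

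The 14 cells came from 5 cultures. In Day 1 culture 1 the mean of Myo6 was 576.7 CPM in the cells with hair cell transcripts against 22.96 in those without. The 3 cultures of Day 3 gave 240 against 29.6, 1010 against 22.9 and 721.3 against 30 CPM, and culture 4 of Day 7 gave 10 against 28.8. The last culture had a single such cell and was the only one of the 5 in which that class was lower, for each member. The mean log2 ratio of CPM + 1 over the 5 cultures was 3.21 ± 2.75 for Myo6 (SD, n = 5), 3.54 ± 2.68 for Cib2, 2.66 ± 3.71 for Rasd2 and 1.96 ± 1.93 for Espn.

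The 14 cells were not alike. In 5 of them no defining gene exceeded 20 CPM, while in the other 9 the highest defining gene had between 180 and 2710 CPM. This split was noticed after the values were seen. In the 5 low cells Myo6 was at most 10 CPM, Cib2 at most 75, Rasd2 at most 70 and Espn at most 15, which is within the range of the cells without. In the other 9 cells Myo6 ran from 220 to 2120 CPM with a median of 910, Cib2 from 10 to 6225 with a median of 430, Rasd2 from 70 to 570 and Espn from 0 to 49 reads with a median of 100 CPM. With these 9 alone, which leaves 4 cultures, the mean log2 ratio was 5.05 ± 0.69 for Myo6 (SD, n = 4), 5.31 ± 1.29 for Cib2, 4.83 ± 0.61 for Rasd2 and 3.11 ± 1.31 for Espn.

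Just inside the limit of 2 defining genes stood 2 cells, with 0 and 10 CPM of Myo6, 0 and 75 of Cib2, 0 and 70 of Rasd2 and 0 and 10 of Espn. Just outside stood 11 cells with a read of 1 defining gene. Their median was 0 CPM for Myo6 and Rasd2, 5 for Cib2 and 15 for Espn. The highest Myo6 level among the 11, 73 reads, was in a Day 1 culture 2 cell whose only defining gene was Atoh1, at 50 CPM. That cell also had 270 CPM of Cib2, 210 of Rasd2 and 35 of Espn. In contrast, 3 Day 7 culture 4 cells with Atoh1 as the only defining gene, at 30, 70 and 170 CPM, had no read of Myo6 or Cib2.

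**Figure D2:**
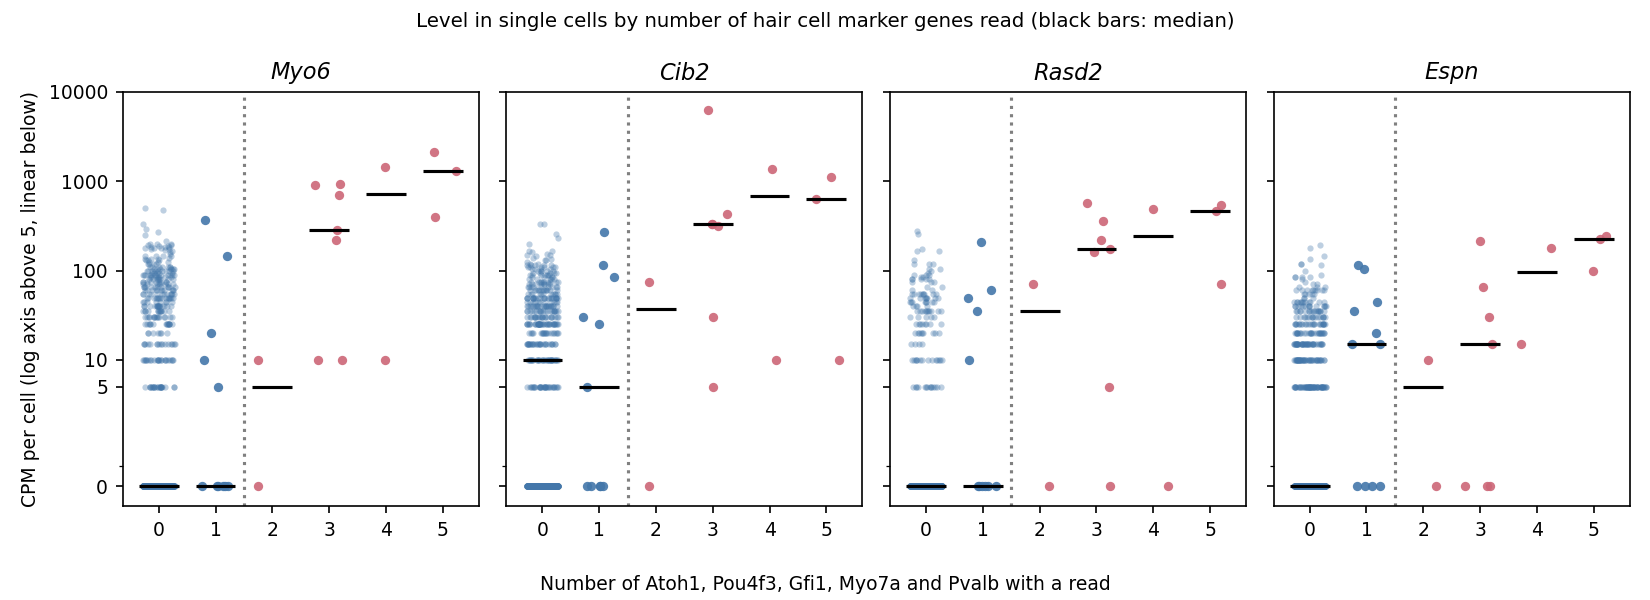
Level of each member in single cells in CPM (y axis, log scale above 5 and linear below) by the number of the 5 defining genes with a read (x axis), with each cell as a point and the median as a black bar. Red cells, right of the dotted line, are the 14 with hair cell transcripts. The 5 low ones among them lie within the range of the cells with no defining gene read.

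Few cells held a large part of the reads. The 14 cells are 2.01% of the thinned cells and held 28.5% of the Myo6 reads, 38.3% of the Cib2 reads, 33.4% of the Rasd2 reads and 11.9% of the Espn reads. On Day 3, where they are 4.50% of the cells, they held 53.02% of the Myo6 reads, 70.7% of the Cib2 reads, 55.3% of the Rasd2 reads and 31.8% of the Espn reads. On Day 7 the single cell held 0.118%, 0.152%, 0 and 0.362% in the same order. A culture sum of a member therefore mixes a low level in many cells with a high level in few.

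The number of members read varied between cells. Among the cells without hair cell transcripts, 12.2% had a read of none of the 4, 33.8% of 1, 34.4% of 2, 17.03% of 3 and 2.64% of all 4. Cib2 was read in 58.3% of the cells with a Myo6 read and 52.2% of those without. Espn was read in 47.2% of the cells with a Myo6 read and in 43.01% of those without, and in 44.96% of cells with a Rasd2 read and 44.93% of those without. Rasd2 was read in 21.7% of cells with Myo6 and 16.7% without. Cells with a read of a member also had more genes read at full depth, with medians of 7061 against 6672 for Myo6, 7003.5 against 6635 for Cib2, 7106 against 6773 for Rasd2 and 6989 against 6740 for Espn. The part of this in the shares above was not tested.

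Epithelial and GER genes were read in most cells, with or without a read of a member. Epcam or Cdh1 was read in 99.7% of the cells without hair cell transcripts that had a read of any member, and in 99.6% of all thinned cells. The tectorial membrane gene Tecta was read in 99.4% of the cells with Myo6 and 100% of those without. The tectorial membrane gene Tectb was read in 91.9% and 92.5%. The supporting cell and progenitor gene Lgr5 was read in 54.7% of cells with Myo6 and 42.2% of those without, and in 52.1% against 42.7% for Cib2, 50.4% against 47.3% for Rasd2 and 49.02% against 46.9% for Espn. Ush1c was read in 64.1% of cells with and 50% without Myo6.

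The next question was whether days in culture changed how many of the cells without hair cell transcripts carried a member. In the order of the cultures, Myo6 was read in 46.9%, 67.1% and 44.7% of the Day 1 cells. The shares were 48.1%, 46.03% and 44.1% on Day 3, and Day 7 gave 61.5%, 37.8%, 34.8%, 33.8% and 34.7%. The second culture of Day 1 and the first of Day 7 stand above the rest, and the days overlap.

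Cib2 was read in 57.1%, 78.8% and 63.2% of the Day 1 cells, and in 29.6%, 57.1% and 55.9% of those from Day 3. The Day 7 shares were 74.4%, 40.5%, 47.8%, 48.1% and 57.3%. The same 2 cultures were highest for Cib2, and the first of Day 3 was lowest. Rasd2 was read in 24.5%, 5.88% and 13.2% of the Day 1 cells, in 20.99%, 11.1% and 19.1% of the Day 3 cells and in 33.3%, 21.6%, 24.6%, 23.4% and 18.7% of the Day 7 cells. The Day 1 culture that was highest for Myo6 and Cib2 was the lowest for Rasd2. Espn was read in 38.8%, 48.2% and 34.2% at first, then in 39.5%, 46.03% and 51.5%, and by Day 7 in 58.97%, 54.1%, 39.1%, 49.4% and 38.7%. The shares of Espn overlapped over the days.

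Mean shares on Days 1, 3 and 7 were 52.9% ± 12.3 (SD, n = 3), 46.1% ± 2.02 (n = 3) and 40.5% ± 11.9 (n = 5) for Myo6. They were 66.4% ± 11.2, 47.6% ± 15.5 and 53.6% ± 13.03 for Cib2, 14.5% ± 9.38, 17.1% ± 5.25 and 24.3% ± 5.51 for Rasd2 and 40.4% ± 7.15, 45.7% ± 5.99 and 48.04% ± 9.01 for Espn. None of the 12 differences between days passed an exact two-sided permutation test over cultures, with the lowest Benjamini-Hochberg adjusted p over the 12 at 0.464. Cultures of the days compared overlapped in all 12, and in some of these the overlap rested on 1 culture. Without Day 7 culture 1, the Myo6 shares of Day 7 lay below all those of Day 1 (by a mean of -17.6 percentage points) and of Day 3 (-10.8, against -5.58 with it), and the exact permutation p was 0.0286 for each, 0.171 after adjustment. With 4 cultures against 3 that p can be no lower. Without Day 1 culture 1, the Rasd2 share was higher in all Day 7 cultures than in the remaining pair of Day 1 (by 14.8 points against 9.82 with it, exact permutation p 0.0476, adjusted 0.429). For Cib2 the Day 3 and Day 1 shares did not overlap without Day 1 culture 1 or Day 3 culture 2, or with counts not thinned or thinned to 100000 reads (adjusted exact permutation p 0.464 to 0.557). The shares of Rasd2 on Days 7 and 3 did not overlap without Day 7 culture 5, nor those of Espn on Days 3 and 1 without Day 1 culture 2 (adjusted 0.571 and 0.8). The smallest unadjusted p is 0.1 for 3 cultures against 3 and 0.018 for 3 against 5. No single difference could therefore pass after adjustment over the 12, whatever its size. These tests cannot show that the shares stayed the same. Within the first of the 2 deposited files, which holds culture 1 of Days 1 and 3 and cultures 1 to 4 of Day 7, the Day 7 share minus the Day 1 share was -4.96 percentage points for Myo6, -4.45 for Cib2, 1.25 for Rasd2 and 11.6 for Espn. Within the second it was -21.2, -13.7, 9.15 and -2.56, so the direction for Espn differed between files.

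The 5 cultures with hair cell transcripts in some cell and the 6 with none overlapped in these shares. Myo6 was read in 33.8% to 48.1% of the cells without hair cell transcripts in the former and in 34.7% to 67.1% in the latter. The ranges were 29.6% to 57.1% and 40.5% to 78.8% for Cib2, 11.1% to 24.5% and 5.88% to 33.3% for Rasd2, and 38.8% to 51.5% and 34.2% to 58.97% for Espn. These are ranges with no test.

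**Figure D3:**
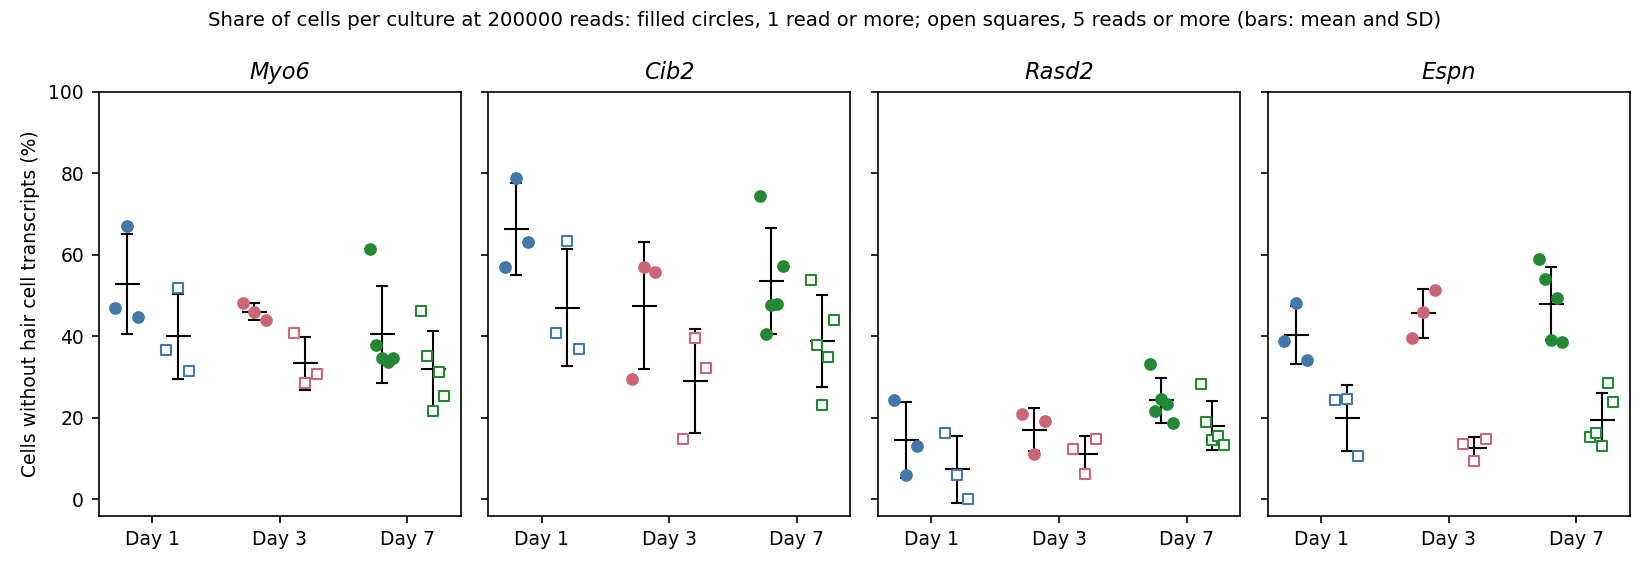
Percent of the cells without hair cell transcripts in each culture (y axis) with at least 1 read (filled circles) and at least 5 reads (open squares) of each member, by culture day (x axis, colours), with mean and SD as bars. Circles for Myo6 lie between 33.8% and 67.1% and those for Rasd2 between 5.88% and 33.3%, and the days overlap for each member.

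Levels summed over the cells of a culture did not pass the test between days for any member. In cells without hair cell transcripts, Myo6 had 24.7, 56.7 and 29.3 CPM on Day 1, 28.8, 22.3 and 32.3 after 3 days and 39.8, 40.3, 21.5, 24.9 and 24.7 after 7, in the order of the cultures. Day 1 culture 2 was highest and the days overlapped. In edgeR's quasi-likelihood test the log2 difference of Day 7 against Day 1 was -0.29 (95% interval -0.98 to 0.40, adjusted p 0.642), and of Day 3 against Day 1 -0.41 (adjusted p 0.796).

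Cib2 had 25.1, 59.5 and 33.1 CPM on Day 1, then 7.79, 32.03 and 21.4, and by Day 7 32.8, 21.1, 15.05, 18.8 and 30.8. It was lowest in Day 3 culture 1 and, like Myo6, highest in Day 1 culture 2. The log2 difference was -0.94 on Day 3 against Day 1 (interval -1.9998 to 0.11, edgeR adjusted p 0.580) and -0.73 on Day 7 against Day 1 (-1.65 to 0.19, adjusted p 0.336).

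Rasd2 had 11.3, 4.64 and 2.60 CPM on Day 1, then 8.11, 6.56 and 8.40, and by Day 7 15.2, 10.6, 9.45, 13.3 and 8.03. Day 1 culture 1 lies among the Day 7 values and the other Day 1 cultures lie below them. The log2 difference of Day 7 against Day 1 was 0.87 (-0.12 to 1.86, edgeR adjusted p 0.275), which reached 1.58 without Day 1 culture 1 (adjusted p 0.0923). Espn had 10.95, 13.6 and 10.1 CPM on Day 1, then 9.82, 8.65 and 10.5, and by Day 7 13.9, 11.4, 7.21, 17.2 and 9.74. The log2 difference of Day 7 against Day 1 was 0.04 (-0.66 to 0.75, edgeR adjusted p 0.962). Against the edgeR background of 0.0116% of 17214 genes called between Days 3 and 1, 6.88% between Days 7 and 1 and 0.831% between Days 7 and 3, 0 of the 4 members were called in any comparison. At an unadjusted edgeR p under 0.05 the count was also 0 of 4 in each. Over all 17214 genes that count was 1638, 3996 and 1950 in the same order. Neither DESeq2 nor limma called a member.

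Values on Day 3 differed when all retained cells were summed, which adds the 14 cells with hair cell transcripts and the 16 with under 200000 reads. Over all retained cells Myo6 had 32.8, 72.5 and 75.9 CPM in Day 3 cultures 1 to 3, against 39.9, 57.4 and 28.9 on Day 1 and 21.5 to 40.5 on Day 7. Cib2 had 10.4, 115.6 and 41.96 CPM on Day 3, and its highest culture is the one with the cell at 6225 CPM. The log2 difference of Day 7 against Day 3 was -0.996 for Myo6 (-1.71 to -0.29, edgeR adjusted p 0.221) and -1.23 for Cib2 (-2.40 to -0.07, adjusted p 0.380), where the cells without hair cell transcripts gave 0.12 and 0.22. On Day 3 against Day 1 the sign also differed between the sets of cells, with 0.52 against -0.41 for Myo6, 0.31 against -0.94 for Cib2 and 0.20 against -0.26 for Espn. For Rasd2 it was 1.08 against 0.32. None of these passed the test (unadjusted p under 0.05 for Myo6 and Cib2 on Day 7 against Day 3, at 0.00972 and 0.0390), where 0.0115%, 7.11% and 0.968% of 17466 genes were called over all cells in the order of the comparisons above. On Day 7 against Day 3, 2066 of these 17466 genes had an unadjusted edgeR p under 0.05. In such sums, fewer cells of a type and less RNA per cell cannot be told apart. The 10 cells with hair cell transcripts on Day 3 came from 3 cultures.

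**Figure D4:**
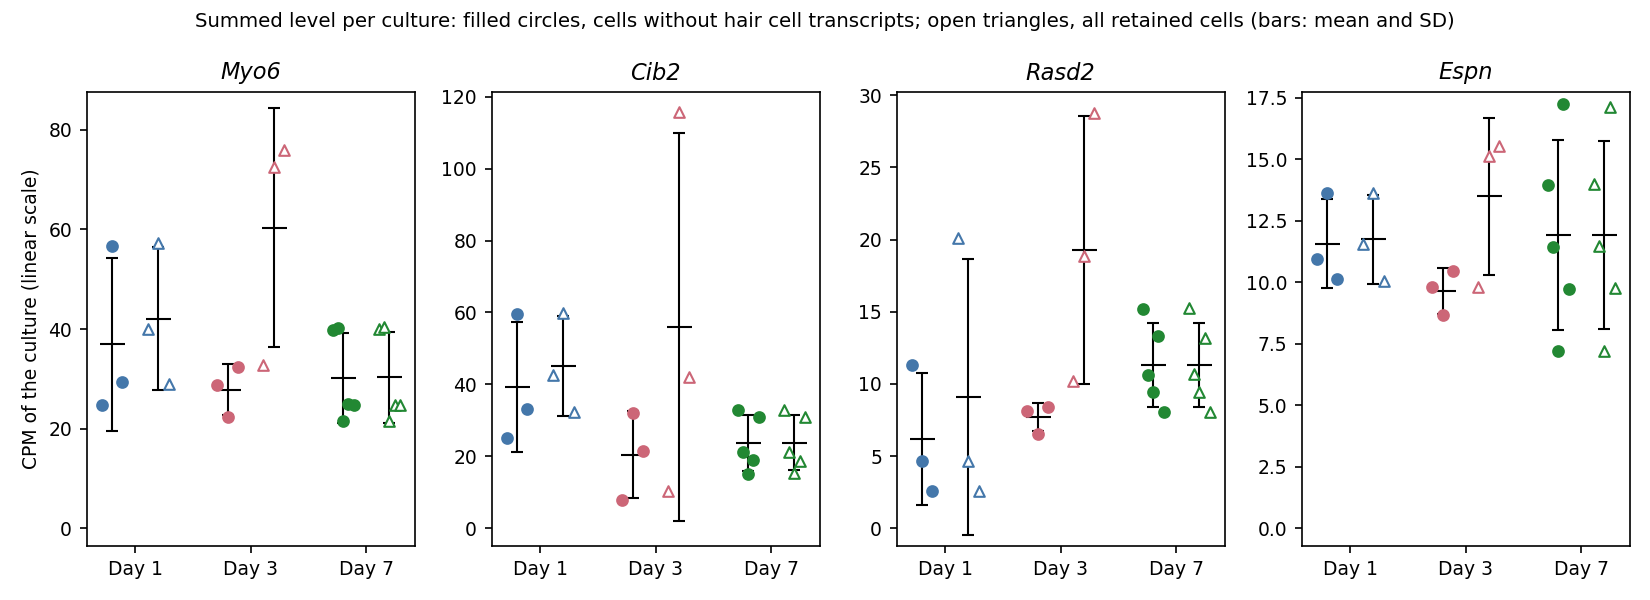
CPM of each member per culture (y axis, linear) by culture day (x axis, colours), for cells without hair cell transcripts (filled circles) and all retained cells (open triangles), with mean and SD as bars. Circles and triangles lie close together on Day 7, and on Day 3 the triangles of Myo6 (up to 75.9) and Cib2 (up to 115.6) lie above the circles.

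Cycling cells were compared with the other cells of the same culture on Days 3 and 7. A cell was called cycling when 3 or more of the mitotic genes Tpx2, Ccnb2, Mki67, Birc5, Cdk1 and Top2a had a read, which gave 16 to 59 cycling and 10 to 56 other cells in each of 8 cultures. Rasd2 was higher in the cycling cells of 7 of the 8 cultures. Its mean level in cycling against other cells was 12.6 against 3.93 CPM, 7.56 against 7.05 and 13.8 against 2.33 in the 3 cultures of Day 3. In the 5 of Day 7 it was 26 against 3.57, 14.7 against 6.67, 8.56 against 0.500, 14.6 against 9 and 7.11 against 9.38. Day 7 culture 5 was the exception.

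The mean log2 ratio of CPM + 1 for Rasd2 was 1.28 ± 1.13 (SD, n = 8, exact two-sided sign-flip permutation p 0.0234, adjusted over the 4 genes 0.0938), so it did not pass after adjustment. Myo6 was lower in the cycling cells of 7 of 8 cultures, with a ratio of -0.45 ± 0.51 (exact permutation p 0.0547, adjusted 0.109). Day 7 culture 2 was the exception, with 49.7 CPM in cycling and 35.95 in other cells. Without it the ratio was -0.58 (exact permutation, adjusted p 0.0625, the lowest that 1 gene alone can reach with 7 cultures). Cib2 gave 0.00 ± 1.19 (adjusted p 0.984, higher in 3 of 8 cultures) and Espn -0.08 ± 0.59 (adjusted p 0.865, higher in 3 of 8). Median genes read per cell at 200000 reads were higher in the cycling cells in 7 of the 8 cultures (5641 to 6571 against 5027 to 6371), and the part of this in the ratios was not tested. The ratios did not differ past the test between Days 3 and 7 for any member (exact permutation over cultures, adjusted p 0.786 to 0.946). With so few cultures 1 gene alone could not pass that test after adjustment over the 4 genes.

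**Figure D5:**
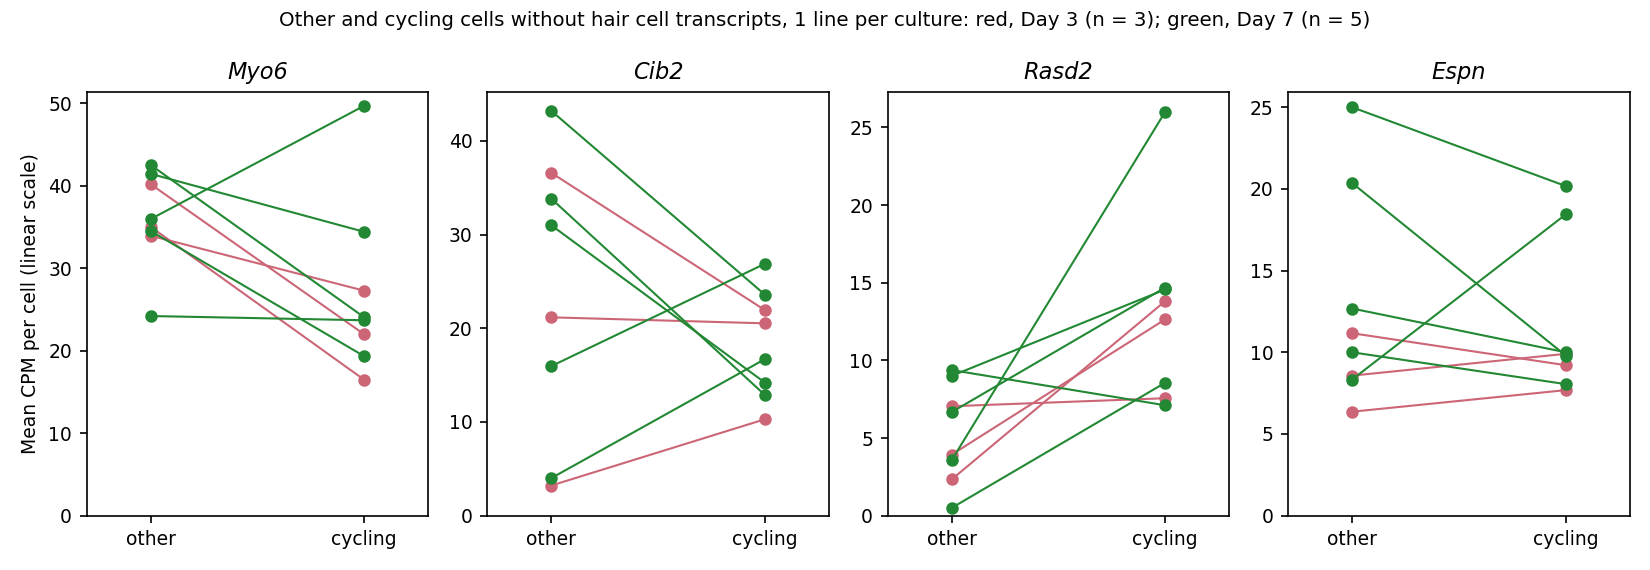
Mean CPM per cell (y axis, linear) in other and cycling cells (x axis) without hair cell transcripts, with 1 line per culture (red, Day 3; green, Day 7). Lines for Rasd2 go up in 7 of 8 cultures and those for Myo6 go down in 7 of 8.

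Lists of genes related to the members were followed in the cells without hair cell transcripts, and were chosen with earlier results of the series known. The lists of myosins, the CIB family, actin genes and small GTPases hold Myo6, Cib2, Espn and Rasd2 themselves. Their counts of genes listed and tested, and their medians, include these members. Of 25 unconventional myosins, 16 were measured well enough to test, and Myo9a, a myosin with a RhoGAP domain, had 50.96 ± 5.33 CPM in the 3 cultures of Day 1 (mean ± SD) and fell to 17.5 ± 4.71 in the 5 of Day 7, with a log2 change of -1.54 (edgeR adjusted p 0.00383). No other tested myosin was called by edgeR in any of the 3 comparisons, and 1 call of 16 is near the 6.88% called over all genes. The median log2 difference of the 16 on Day 7 against Day 1 was -0.32, where that of all genes tested was 0.01. Of 8 adaptors that link MYO6 to its cargo, 7 were tested and none was called. The smallest adjusted p on Day 7 against Day 1 was that of Lmtk2, at -1.30 (0.119), followed by Tom1l2 at -0.46 (0.458).

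Of 11 genes of the CIB family and the transduction complex, 5 were tested, Cib2 among them, and none was called. Whrn, a scaffold of the stereocilia tip, had the smallest adjusted p on Day 7 against Day 1, with a log2 difference of -1.62 (0.110), followed by Cib1 at -0.54 (0.248). Tmc1 and Tmc2, the channel subunits to which CIB2 binds, had no read in any thinned cell. The median of the 5 was -0.54.

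Of 14 actin bundling and microvillus genes, 12 were tested, Espn among them. On Day 7 against Day 1, 1 of the 12 was called, which is near the 6.88% called over all genes. Fscn1, which encodes the bundling protein fascin, fell from 13.04 ± 4.23 CPM on Day 1 to 1.76 ± 1.52 on Day 7 (log2 -2.88, edgeR adjusted p 0.0456). Leaving out any of the 3 cultures of Day 1, culture 1 or 3 of Day 3, or any but culture 4 of Day 7 removed the call (adjusted p 0.0567 to 0.135). The median of the 12 was -0.38. Of 9 small GTPases, which are RASD2 and others near it, 7 were tested, Rasd2 among them. On Day 7 against Day 1, 2 of the 7 were called, beside 6.88% of all genes. On Day 7 against Day 3, 1 of the 7 was called, beside 0.831% of all genes. Rras fell from 45.6 ± 9.25 CPM on Day 1 to 15.6 ± 3.00 on Day 7 (log2 -1.55, adjusted p 0.00272) and was also lower on Day 7 than on Day 3, where it had 39.9 ± 2.22 (log2 -1.35, edgeR adjusted p 0.0184). The second call was lost when any 1 of the Day 3 cultures was left out (adjusted p 0.0579 to 0.0876). Rerg, a Ras-related growth inhibitor, fell from 13.7 ± 5.08 to 2.18 ± 1.76 CPM (log2 -2.64, adjusted p 0.0279), a call that ended when any culture of Day 1, or culture 1 or 4 of Day 7, was left out (edgeR adjusted p 0.050 to 0.0943). The median of the 7 GTPases was -0.11.

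Of the 35 hair cell genes, 10 were tested in these cells, and Anxa4, a calcium-dependent membrane-binding annexin, was the 1 called, where 6.88% of all genes were. It fell from 116.8 ± 24.1 CPM on Day 1 to 70.4 ± 14.9 on Day 7 (log2 -0.73, edgeR adjusted p 0.0440). The call ended when culture 2 or 3 of Day 1 or of Day 3, or any but culture 5 of Day 7, was left out (adjusted p 0.0617 to 0.181). With the second deposited file alone, none of Myo9a, Rras, Fscn1, Rerg and Anxa4 was called on Day 7 against Day 1, and all 5 log2 differences stayed below 0 (edgeR adjusted p 0.0781 to 0.535). With the file as a term in the fit, Myo9a and Rras were called and Fscn1, Rerg and Anxa4 were not (adjusted p 0.0822 to 0.0923). The median log2 difference of the 10 was -1.08, and 9 of them were below 0. The 5 genes read in 1% to 10% of the cells are among the 10 and had few reads. Their mean levels lay between 0.578 and 7.26 CPM on Day 1 and between 0 and 1.02 CPM on Day 7. Ush1c and Pcdh15, which like the members were read broadly, had log2 differences of -0.60 (adjusted p 0.211) and 0.13 (0.930).

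Markers of cell types also changed between Days 1 and 7, where 6.88% of all genes were called. Of 10 GER genes Tectb, Otog and Fabp7 were lower on Day 7 than on Day 1 in edgeR's test, Tectb and Otog with log2 differences of -3.57 and -1.42. Of 10 supporting cell genes Lgr5 and Slc1a3 were lower (-2.32 and -1.34) and Sox9 was higher (1.25). Epcam and Cdh1, of 4 epithelial genes, were lower (-0.87 and -1.51), as were Tubb3 and Nefl, of 4 neuron genes. Of the mesenchyme genes Col1a2 was lower and Twist1 higher. Adjusted p values of these genes ran from 0.00189 to 0.0444, and their part in the falls above was not tested.

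Between genes, levels can be compared only per length. Divided by the summed exon length of the gene, Cib2 had 17.8 ± 8.68 CPM per kb (SD, n = 11 cultures), Rasd2 2.95 ± 1.47, Myo6 2.54 ± 0.817 and Espn 1.43 ± 0.453 in cells without hair cell transcripts. Cib2 was the highest in all 11 cultures, and Rasd2, Myo6 and Espn changed places between cultures. Espn was above Rasd2 in Day 1 cultures 2 and 3 and above Myo6 in Day 7 culture 4. Divided by the longest transcript in place of all exons, Myo6 came to 3.86 ± 1.25, Rasd2 to 3.34 ± 1.67 and Espn to 2.57 ± 0.811, which lie within each other's spread, and Cib2 kept its value.

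Across the 11 cultures, log2 CPM of Myo6 in cells without hair cell transcripts followed that of Pbxip1 (Pearson r 0.82), Eid1 (0.82) and Ebf1 (0.81) most closely, among 6594 genes with a mean of at least 20 CPM. The nearest to Cib2 were Ggh (0.92), Ppic (0.90) and Selenom (0.89), to Rasd2 Uaca (0.94), Ctnnb1 (0.93) and Trim28 (0.92), and to Espn Zfp623 (0.79), Sox4 (0.78) and Ubald1 (0.78). Between members, r was 0.47 for Myo6 and Cib2, 0.51 for Myo6 and Espn and -0.37 for Cib2 and Rasd2. These values describe 11 cultures that differ in day, depth and file, and the highest of 6594 is high by selection.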

How the data were processed

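Estimated counts per gene were deposited by the authors for 768 cells in 2 files of 384 cells, with no normalisation; 10.6% of values above 0 were not whole (tolerance 0.001). Per the submitters' processing notes, STAR 2.5.3a and RSEM 1.3.0 were used with mm10/GRCm38. The expected counts were rounded here. The 92 spike-in and 4 transgene rows were left out. Cells with under 50000 reads, under 1500 genes or over 20% mitochondrial reads were left out (16, 17 and 35 cells, 57 in all). A retained culture had 37 to 86 cells and 26391412 to 72483565 reads.

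Counts were summed per culture (11 cultures; cells without hair cell transcripts are those with at least 200000 reads) and all genes were fitted in edgeR 4.0.16 (R 4.3.3; TMM, filterByExpr, quasi-likelihood F-test, day as the only term), called at a Benjamini-Hochberg adjusted p under 0.05. CPM of a culture uses TMM scaling. Alternatives were DESeq2 1.42.0, limma 3.58.1 on log2 of mean CPM + 1, other filters, depths and definitions of the cells, and leaving out each culture. The pipeline was tested on simulated data. Shares and cycling ratios were compared with exact permutation tests over cultures. No doublet caller was run on these hand-picked cells.

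The members and the gene lists were chosen with earlier results of these data known. Named beside the members are called list members, the 2 smallest adjusted p of a list without calls, and the 3 genes of most similar CPM over cultures; the single cells and the genes Ush1c, Pcdh15, Tmc1 and Tmc2 were named after their values were seen. Protein sequences were not used here. The glia marker list as a whole, which was not near 0, is not reported here.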

Additional observations from a re-analysis of the deposited data

Results flagged for a closer look

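Of 20 groups of 4 to 10 cultures examined for a culture far from the others, 2 had one, and chance alone gives about 1 in 20. Among the 5 Day 7 cultures, the share of cells without hair cell transcripts with a read of Myo6 was 61.5% in culture 1, where the other cultures ran from 33.8% to 37.8%. The same culture was the highest of Day 7 for Cib2 (74.4%), Rasd2 (33.3%) and Espn (58.97%). It had 39 such cells.

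For Rasd2, the log2 ratio of cells with over cells without hair cell transcripts was -3.82 in Day 7 culture 4, where the other 4 cultures ran from 2.99 to 5.02. That culture has 1 cell with hair cell transcripts, and no defining gene of that cell exceeded 10 CPM.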

How the results depend on the processing

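No member was called between days, in its share of cells or in cycling cells under any alternative computation of 40 tested results (lowest adjusted p 0.0625). That lowest value came from sign-flip permutation tests of cycling ratios with 1 Day 7 culture left out. With the 7 cultures that remain, 1 gene alone can reach no lower. In the permutation tests of shares no single difference could pass after adjustment, whatever its size. The absence of calls in those tests is therefore no sign of stability. Of 792 alternatives over all 48 results, 3 moved a value past its spread: with at least 5 reads in place of 1, the mean share of cells without hair cell transcripts over cultures was 34.5% for Myo6, 38.4% for Cib2 and 17.7% for Espn. The log2 difference of Espn on Day 7 against Day 1 changed sign in 13 of 23 alternatives (-0.28 to 0.18). Calls of list genes were less firm, and 28.3% of their alternatives lost the call with the direction kept, among them all 6 calls with the second file alone.

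The share of genes called over the whole table varied more. In cells without hair cell transcripts edgeR called 0.0116% of genes between Days 1 and 3, 6.88% between Days 1 and 7 and 0.831% between Days 3 and 7. In that order DESeq2 called 1.59%, 12.8% and 3.36%, limma 0.546%, 10.2% and 0.924%, and edgeR on the second file alone 0.0747%, 0.752% and 0.0534%. Leaving out 1 culture gave 0 to 0.0350%, 2.35% to 7.22% and 0.159% to 0.979%. Over all retained cells edgeR called 0.0115%, 7.11% and 0.968%, DESeq2 1.48%, 13.3% and 3.66%, limma 0.395%, 10.3% and 0.910%, and the second file alone 0.0945%, 0.656% and 0.105%.

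Same-numbered cultures of different days correlated between -0.01 and 0.11 in their deviations from the day means, with 1 of 9 pairs over 0.1. That pair was culture 1 of Day 1 with culture 1 of Day 3, the only cultures of these days in the first file. The 18 pairs of different number ran from -0.07 to 0.03. Deviations from a day mean sum to 0 over its cultures, so higher values in some pairs tend to lower the others. The labels do not say whether numbers link cultures of different days, and the main fit did not pair them. Whether same-numbered cultures share an origin was not tested. With the replicate block over cultures 1 to 3, the log2 difference of Day 7 against Day 1 was -0.15 for Myo6, -0.67 for Cib2, 1.02 for Rasd2 and -0.17 for Espn (edgeR adjusted p 0.252 to 0.854). The block called 0.114%, 6.09% and 0.684% of genes in the same order, against 0.0240%, 5.45% and 0.552% for the same cultures without it, a setting added after the data were seen, as was the limit of 10 reads on a defining gene.

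Depth limits the shares: at 200000 reads a level of 1 read is 5 CPM.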
